A study of Rattus norvegicus with 22 samples.

Results

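The injured and the uninjured hemisphere were compared within each of 6 rats that had received a penetrating ballistic-like brain injury (PBBI). The 12 samples, an ipsilateral (IPSI) and a contralateral (CONTRA) cortical sample of each rat, were picked by treatment, hemisphere and animal id from the 22 samples of the series. The other 10 samples are both hemispheres of 5 sham rats, and they gave the same contrast without injury. All 11 rats were adult male Sprague-Daley rats, as the labels spell the strain, all had implanted electrodes for EEG and EMG recording, and RNA was taken from the brain 24 h after the procedure. In PBBI rats a probe was pushed through a right frontal opening in the skull and a balloon on it was briefly inflated, which left a cavity. In sham rats the brain was not penetrated, and surgery and anaesthesia were otherwise matched. The contralateral samples of PBBI rats therefore come from injured brains, and each difference given is between hemispheres of the same brain.

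After a penetrating injury, damaged cells, microglia and astrocytes release cytokines and chemokines that attract neutrophils and monocytes from the blood. Cytokines of the IL-6 family signal through STAT3 and induce its own inhibitor SOCS3, and astrocytes respond by making intermediate filaments such as GFAP while turning down parts of their usual metabolic and transport programme. Microglia and other cells begin to divide, and injured neurons switch on genes known from cut peripheral axons. In bulk tissue, fewer cells of a type and less RNA per cell cannot be told apart.

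The deposited values are raw counts per gene, and total counts were between 55912129 and 63412426 in the 12 PBBI samples and between 42085341 and 61682289 in the sham samples. Levels are given as read counts scaled to library size (CPM) after TMM normalization, as the lowest, median and highest of 6 rats. Across the 15973 genes tested, the within-rat differences of rat 85 correlated least with the mean of the other 5 rats (Pearson's r = 0.330 across genes, which are not independent), followed by rat 83 (0.491), while the other 4 rats lay between 0.642 and 0.732. The ipsilateral library of rat 85 had a TMM factor of 0.706, against 0.919 to 1.21 in the other 11. The differences of rat 85 followed gene length with a Spearman's rho of -0.267. In the other 5 rats rho lay between -0.097 (rat 81) and 0.177 (rat 83). Rat 83 showed small differences, with a median of 0.58 on the log2 scale over the genes called higher, against 1.15 to 1.51 in the other rats. The contralateral library of rat 81 held the highest contralateral level in 51.8% of the genes called higher ipsilaterally and in 15.5% of all genes tested. The titles of both libraries of rat 81 hold the letters PFC. Elsewhere only the title of the contralateral library of sham rat 82 has them. Whether the tissue taken differed was not tested.

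At an adjusted p of 0.05 or less from edgeR's quasi-likelihood test with the rat as a block, 1646 of the 15973 genes tested (10.3%) differed between the hemispheres of PBBI rats. Of these, 1067 (6.68%) were higher and 579 (3.62%) lower ipsilaterally, with median log2 fold changes of 1.26 and -0.88 against -0.05 over all genes tested. The difference had the same sign in all 6 rats in 993 of the higher and 544 of the lower genes, and in 22.4% of all genes tested. In sham rats 0 of 15747 genes (0%) passed with edgeR, 1 passed with DESeq2 and none with limma voom with sample quality weights. An unadjusted p under 0.05 was found in 238 genes with edgeR, 248 with DESeq2 and 2628 with weighted voom. With edgeR it was found in 118 genes without sham rat 84 and in 1228 without sham rat 94, the lowest and highest count with 1 sham rat left out. Without any difference, a share of 0.05 of the genes would have such a p. With all sham rats, the counts of edgeR and DESeq2 lay below that share and that of weighted voom above it. The lack of calls in sham therefore does not show that its hemispheres were equal. The difference between hemispheres itself differed between PBBI and sham rats in 708 of 16587 genes (4.27%, adjusted p of 0.05 or less from edgeR). Of these, 489 (2.95%) were more positive and 219 (1.32%) more negative in PBBI, and 663 were also called within PBBI rats. Both tests used the same PBBI samples, so this overlap is no independent support. Those 663 are 40.28% of the 1646 genes called within PBBI rats, and the rest were not shown to differ from sham.

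**Figure D1:**
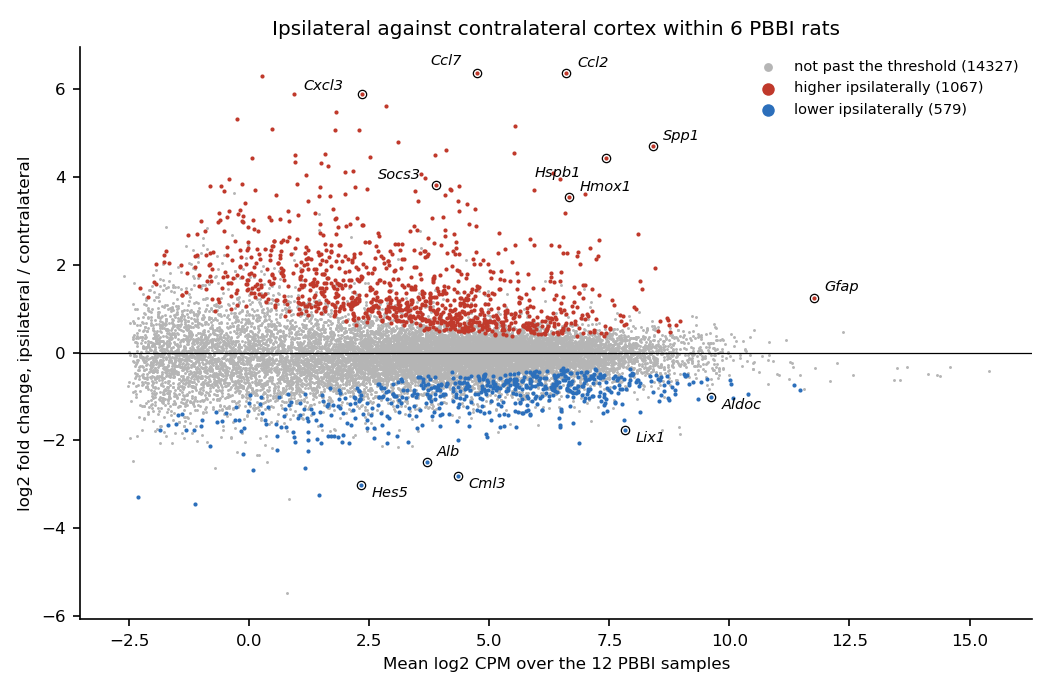
Log2 fold change of the ipsilateral over the contralateral hemisphere in 6 PBBI rats (vertical) against mean log2 CPM over the 12 samples (horizontal), 1 point per gene tested. Red points (1067) were called higher and blue points (579) lower ipsilaterally, and the median over all points is -0.05.

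The number of genes called rested on single rats. It was 558 without rat 81, 1817 without rat 83, 3356 without rat 85, 268 without rat 88, 263 without rat 90 and 272 without rat 96, and without rats 83 and 85 together it was 4233. A set of 207 genes, 181 higher and 26 lower, passed in the fit with all rats and in each of the 6 fits that left out a rat. Among the 26 were Slc15a2, Tmem119, Slco1c1, Prodh, Hapln1, Lix1 and Cml3.

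**Figure D2:**
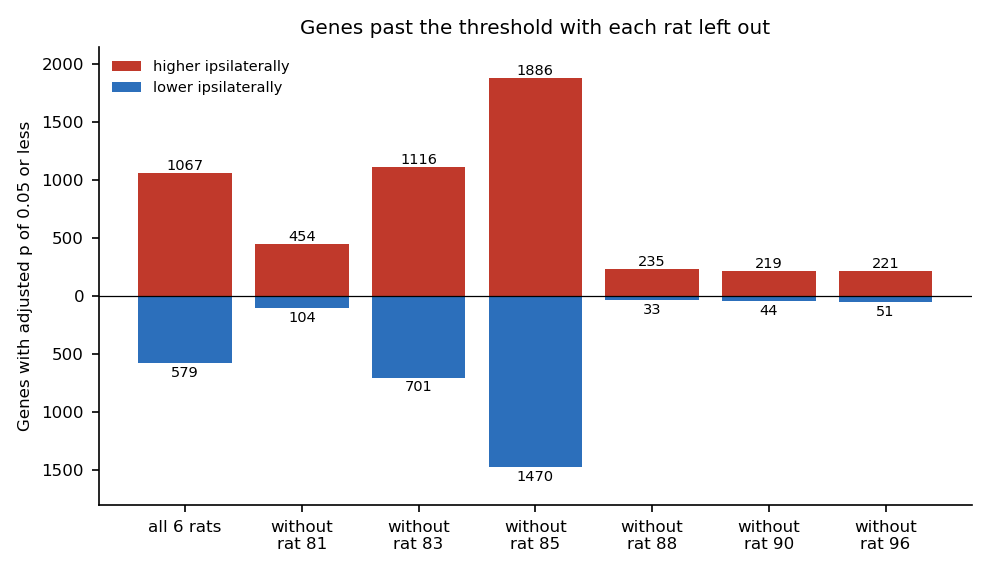
Genes with an adjusted p of 0.05 or less from edgeR (vertical axis, counts) in the fit of all 6 PBBI rats and in the fits that left out a rat (horizontal axis), with red bars for genes higher and blue bars for genes lower ipsilaterally. The fit without rat 85 called 3356 genes, and the fits without rat 88, 90 or 96 called between 263 and 272.

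The deposited table names no genes. Names were taken from supplementary tables of genes that the study had called on these same samples, in one for a difference of ipsilateral samples from sham and in the other by time in sleep stages in either hemisphere, so the named genes are not an independent choice. Of 1652 tested genes with a name, 62.8% passed (50% higher and 12.8% lower), against 4.25% of the 14321 genes without a name (1.68% higher and 2.56% lower). The lists described here hold named genes only, and their counts have to be read against these shares. Some genes are on several lists and are counted in each, so the lists are not separate results. Of the reactive astrocyte genes, Clcf1 and Osmr are also on the IL-6 list and Hspb1 on that of stress proteins. Timp1 is also on the clotting list, and Ptx3 and Tnc are on the matrix list. Mmp9 is on the neutrophil and the clotting list. Each gene described as having risen or fallen did so in all 6 rats unless stated, which gives p = 0.03125 when the signs of the 6 pairs are changed in all 64 ways (exact permutation test, two-sided), the smallest p such a design allows. Genes named by fold were picked for the same sign in all 6 rats, so for them this p was fixed by the choice and is no support. The same sign was found in 22.4% of all genes tested.

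**Figure D3:**
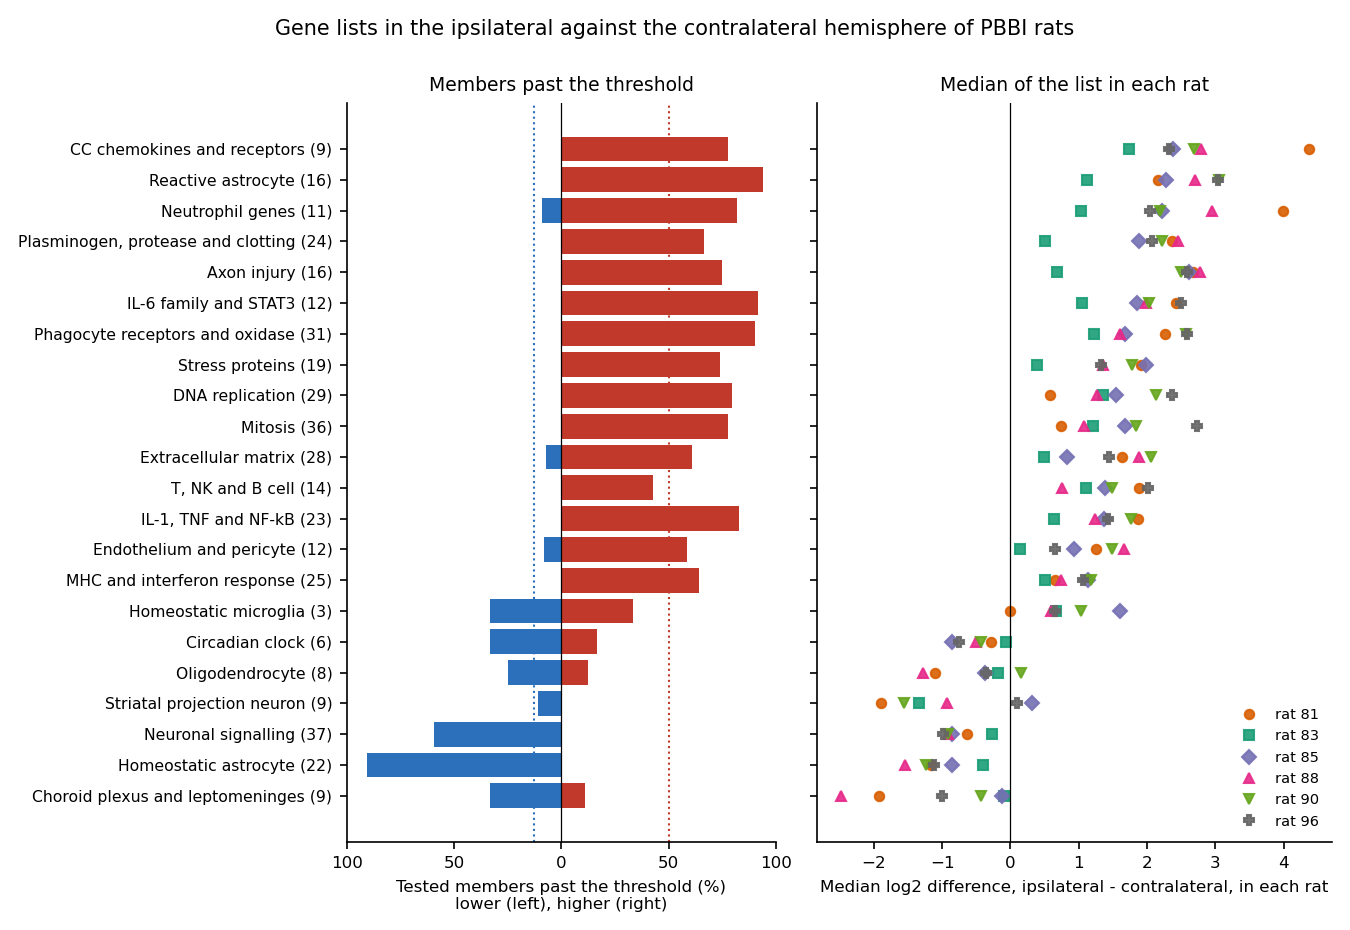
Left, share of the tested members of each list past the threshold in PBBI rats (number tested in brackets), lower to the left in blue and higher to the right in red, with dotted lines at the shares of all named genes (12.8% lower and 50% higher), and right, median log2 difference between hemispheres over the tested members of each list in each rat. Rat 83 lies lowest in most lists that were higher, and the lists with negative medians include those of resting astrocytes and neuronal signalling.

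CC chemokines were among the named genes with the highest fold changes. Ccl2, which attracts monocytes, had 0.957, 1.53 and 6.44 CPM (lowest, median and highest of 6 rats) contralaterally and 25.2, 158 and 412 CPM ipsilaterally. No ipsilateral sample reached down to the contralateral range, and the lowest ipsilateral value was that of rat 83. The log2 fold change was 6.37 (standard error, SE, 0.59, edgeR adjusted p = 0.00500), or 82.7-fold. Its neighbour in function Ccl7 rose by 6.37 on the log2 scale (SE 0.51) from 0.469 to 37.7 CPM at the median, and Ccl12 by 5.06 (0.43) from 0.180 to 6.36 CPM. In sham rats Ccl2 lay between 0.571 and 3.92 CPM in both hemispheres. Of 9 tested CC chemokines and receptors, 7 were higher and none lower. Cx3cl1, which neurons make and which keeps microglia at rest, did not pass, with a log2 fold change of -0.46 (SE 0.14, edgeR adjusted p = 0.0753), and neither did Ccl6. Since reads of near-identical family members can be split or lost in counting, values of Ccl genes, like those of Cml3 and Cml5, Mt2A, the Fcgr and RT1 genes and Hspa1b, are uncertain. The count of 7 was between 5 (without rats 88, 90 or 96) and 8 (without rat 83) when a rat was left out, and 8 without rats 83 and 85.

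Genes of neutrophil attraction and content behaved likewise. Cxcl1, a ligand that draws neutrophils, had 0.0696, 0.199 and 0.489 CPM contralaterally and 2.57, 13.3 and 31.1 CPM ipsilaterally, with no overlap (log2 fold change 5.62, SE 0.58, adjusted p = 0.00653 from edgeR). Cxcl3 rose by 5.90 (SE 0.51), from at most 13 counts in a contralateral library. Lcn2, an iron-binding protein of neutrophils and reactive astrocytes, rose by 3.45 (SE 0.44). S100a8, a calcium-binding protein abundant in neutrophils, overlapped between hemispheres. It had between 0.520 and 18.4 CPM contralaterally and between 1.10 and 85.5 CPM ipsilaterally, and was higher ipsilaterally in each rat (log2 fold change 2.39, SE 0.35). Of the 11 tested members, 9 were higher. Olfm4 was lower (-1.10, SE 0.26), and Csf3r, the receptor for the neutrophil growth factor G-CSF, did not pass (adjusted p = 0.0634 from edgeR). The number past the threshold was between 4 (without rat 88) and 11 (without rat 85), and Olfm4 passed in 1 of the 6 fits that left out a rat, the one without rat 85 (adjusted p up to 0.107 in the others, edgeR).

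**Figure D4:**
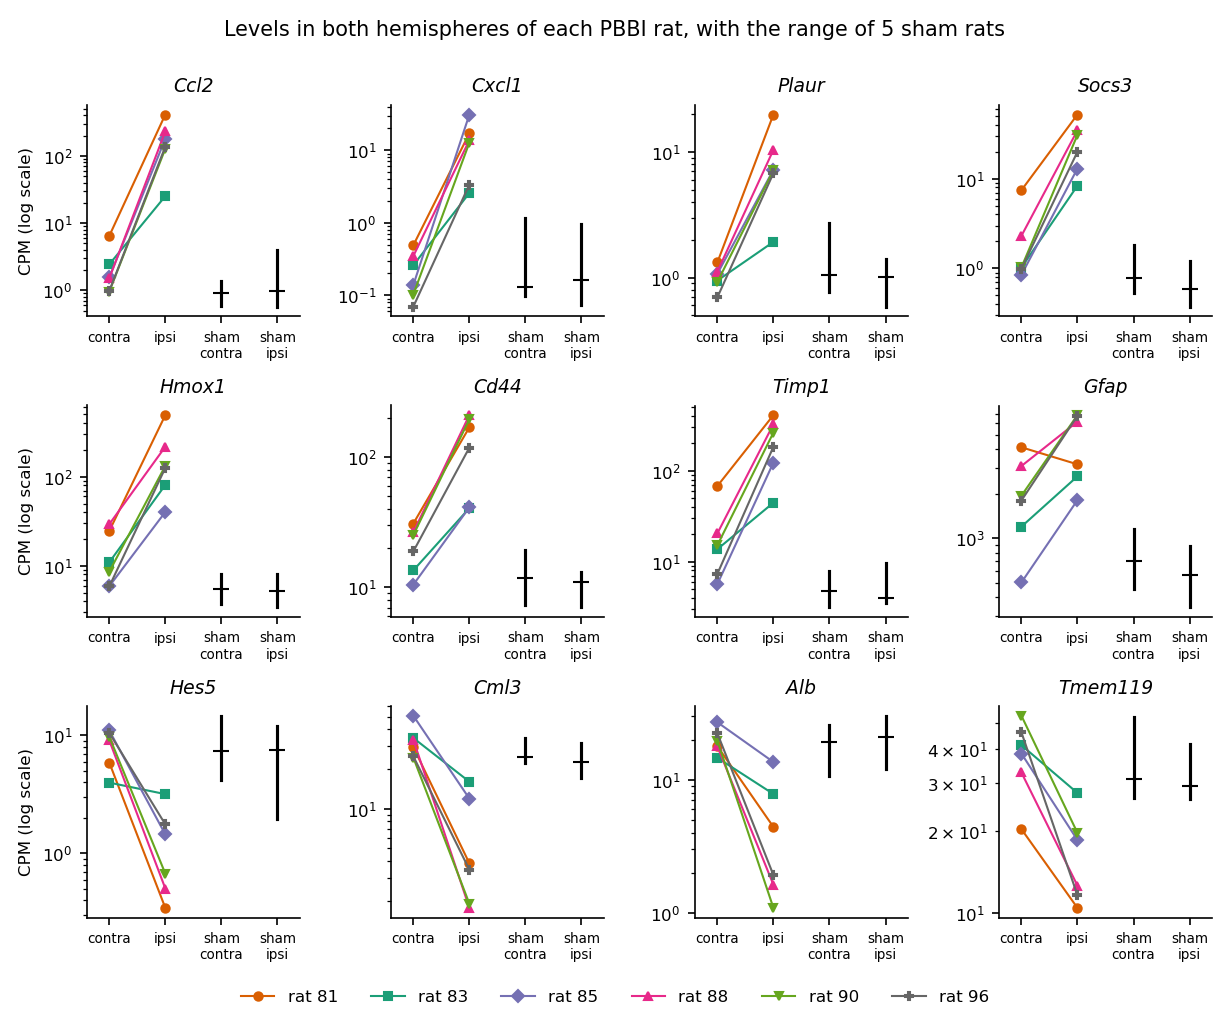
CPM on a log scale in the contralateral and ipsilateral hemisphere of each PBBI rat, joined by a line, for 8 genes that were higher and 4 that were lower ipsilaterally, with black bars for the range and a tick for the median of 5 sham rats. Each line of Ccl2, Cxcl1, Plaur, Socs3, Hmox1, Cd44 and Timp1 points up and each line of Hes5, Cml3, Alb and Tmem119 points down, while for Gfap the line of rat 81 points down and the others up.

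In the IL-6 family, Socs3, the feedback inhibitor of STAT3 signalling, was among the 5 named genes with the smallest p. It had 0.847, 1.02 and 7.45 CPM contralaterally and 8.38, 25.5 and 52.1 CPM ipsilaterally, without overlap (log2 fold change 3.82, SE 0.31, adjusted p = 0.00361 from edgeR). Its differences in single rats ran from 2.80 in rat 81 to 4.87 in rat 90. Stat3 itself rose by 1.37 (SE 0.12), from a median of 63.7 to 175 CPM. Of the ligands, Il11 rose by 4.79 (SE 0.70) and Lif by 4.32 (0.50). Il6 had 0.208, 0.387 and 0.683 CPM contralaterally and 0.250, 2.41 and 8.76 CPM ipsilaterally, was higher in 5 of 6 rats, and did not pass (log2 fold change 2.27, SE 0.76, adjusted p = 0.0938 from edgeR). The other 11 of 12 tested members were higher, and 5 passed without rat 88 or rat 96 and 11 without rats 83 and 85.

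Of 23 tested genes of IL-1, TNF and NF-kB signalling, 19 were higher and none lower. Il1b, the gene of interleukin-1 beta, had 0.547, 0.749 and 1.30 CPM contralaterally and 1.4, 5.05 and 27.9 CPM ipsilaterally. Every ipsilateral sample lay above every contralateral one, and the log2 fold change was 2.91 (SE 0.43, edgeR adjusted p = 0.0106). Cd14, which hands bacterial lipids and tissue debris to Toll-like receptors, rose by 3.8 (SE 0.40), and Zfp36, which speeds the decay of cytokine transcripts, by 2.53 (0.26). Il1r2, a decoy receptor that binds interleukin-1 without signalling, passed in each of the 6 fits that left out a rat, with log2 fold changes between 3.74 and 4.46. Il1rn, Irak4, Tnfrsf1b and Zc3h12a did not pass. The count was 11 without rat 88, 90 or 96 and 22 without rat 85.

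Promoters of 9 genes are printed because they hold a match to a known motif of AP-1, STAT or NF-kB, factors of injury and cytokine responses, and that of Hes5 because it holds none and the gene fell. They were picked for their matches, and 57 of the 78 named genes with a promoter in the table held no match, among them Fosl1, Ccl12, Spp1, Cst7, Cd44 and Stat3. Il6 is printed although it did not pass. A STAT match was also found in the promoters of Kcnt2 and Lrrtm3, which were lower ipsilaterally and are not printed. For each gene the 250 bases before the transcription start were read from the RefSeq promoter table of assembly GRCr8, which matched 1112 of the 1652 tested names. Capitals mark matches on either strand to the AP-1 motif (TGANTCA), the STAT motif (TTCNNNGAA) or the NF-kB motif. The windows lie at chr14:17479322-17479571 (minus strand) for Cxcl1, chr4:5894576-5894825 (minus strand) for Il6, chr3:36081781-36082030 (minus strand) for Lcn2, chr10:103694769-103695018 (minus strand) for Socs3 and chr10:38417685-38417934 (plus strand) for Irf1, a transcription factor of the interferon response. Those of Il11, Sprr1a, Plaur and Ccl7 lie at chr1:78098372-78098621 (plus strand), chr2:180752626-180752875 (minus strand), chr1:89181113-89181362 (plus strand) and chr10:67513845-67514094 (plus strand). Hes5, the gene with the lowest fold change among those named by fold, lies at chr5:170804327-170804576 (plus strand) and held none of the motifs.
Cxcl1: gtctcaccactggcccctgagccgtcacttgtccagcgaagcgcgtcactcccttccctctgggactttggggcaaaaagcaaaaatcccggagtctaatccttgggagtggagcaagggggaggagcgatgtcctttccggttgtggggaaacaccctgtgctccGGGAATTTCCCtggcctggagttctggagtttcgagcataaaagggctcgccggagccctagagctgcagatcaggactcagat
Il6: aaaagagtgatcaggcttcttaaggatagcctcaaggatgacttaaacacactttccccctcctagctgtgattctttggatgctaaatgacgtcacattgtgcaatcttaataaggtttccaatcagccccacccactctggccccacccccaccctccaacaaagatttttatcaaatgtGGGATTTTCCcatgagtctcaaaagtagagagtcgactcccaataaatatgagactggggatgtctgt
Lcn2: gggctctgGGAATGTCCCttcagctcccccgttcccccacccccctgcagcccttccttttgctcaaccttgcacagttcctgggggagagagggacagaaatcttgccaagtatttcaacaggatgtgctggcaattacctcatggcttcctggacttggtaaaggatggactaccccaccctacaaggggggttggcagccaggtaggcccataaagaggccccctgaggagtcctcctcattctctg
Socs3: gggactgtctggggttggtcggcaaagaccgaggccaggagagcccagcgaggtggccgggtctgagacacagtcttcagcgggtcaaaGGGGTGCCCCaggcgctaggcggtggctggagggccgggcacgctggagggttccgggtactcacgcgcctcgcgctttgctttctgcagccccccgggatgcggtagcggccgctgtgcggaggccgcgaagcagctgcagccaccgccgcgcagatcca
Irf1: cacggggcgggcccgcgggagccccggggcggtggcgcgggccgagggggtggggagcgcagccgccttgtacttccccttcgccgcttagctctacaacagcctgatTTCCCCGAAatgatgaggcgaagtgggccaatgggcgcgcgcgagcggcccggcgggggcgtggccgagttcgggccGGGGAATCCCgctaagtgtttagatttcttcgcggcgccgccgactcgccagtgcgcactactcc
Il11: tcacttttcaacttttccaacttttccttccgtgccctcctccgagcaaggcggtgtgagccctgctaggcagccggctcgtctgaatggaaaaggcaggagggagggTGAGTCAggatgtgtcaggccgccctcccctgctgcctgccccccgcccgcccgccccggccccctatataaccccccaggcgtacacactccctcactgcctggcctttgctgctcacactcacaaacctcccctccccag
Sprr1a: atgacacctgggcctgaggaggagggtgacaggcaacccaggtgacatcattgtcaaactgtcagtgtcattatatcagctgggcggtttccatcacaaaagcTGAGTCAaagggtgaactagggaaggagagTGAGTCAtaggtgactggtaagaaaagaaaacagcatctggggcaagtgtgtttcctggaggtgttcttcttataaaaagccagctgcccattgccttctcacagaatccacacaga
Plaur: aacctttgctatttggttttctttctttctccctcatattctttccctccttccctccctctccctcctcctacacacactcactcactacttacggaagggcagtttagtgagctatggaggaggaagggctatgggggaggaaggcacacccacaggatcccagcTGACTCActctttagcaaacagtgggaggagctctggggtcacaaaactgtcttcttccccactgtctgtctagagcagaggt
Ccl7: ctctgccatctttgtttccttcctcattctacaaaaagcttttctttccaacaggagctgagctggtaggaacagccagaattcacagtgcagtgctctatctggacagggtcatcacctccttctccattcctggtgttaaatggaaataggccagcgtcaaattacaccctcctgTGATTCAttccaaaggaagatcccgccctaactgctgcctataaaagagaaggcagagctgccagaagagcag
Hes5: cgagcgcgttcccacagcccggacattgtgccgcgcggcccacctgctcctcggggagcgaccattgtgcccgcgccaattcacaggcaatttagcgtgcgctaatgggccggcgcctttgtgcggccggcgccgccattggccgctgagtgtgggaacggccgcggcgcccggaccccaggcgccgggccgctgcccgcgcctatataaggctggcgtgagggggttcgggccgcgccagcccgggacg

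The capitals in Cxcl1, Lcn2 and Socs3 are NF-kB matches, in Cxcl1 a pair of overlapping ones, and Il6 holds another. Irf1 holds a STAT and an NF-kB match. Il11, Plaur and Ccl7 hold an AP-1 match and Sprr1a a pair of them. An NF-kB match was present in 7.21% of the 569 matched promoters of genes that were higher, in 5.59% of the 143 of genes that were lower, in 4.25% of the 400 of named genes that did not pass and in 3.54% of all 33469 promoters. For AP-1 these shares were 7.91%, 3.5%, 7.5% and 6.34%, and for STAT 6.33%, 5.59%, 6.5% and 7.67%. These shares are a description, and a match does not show binding.

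Phagocyte genes were higher in 28 of 31 tested members and lower in none. Ncf4, a subunit of the oxidase with which phagocytes kill microbes, had 2.19, 2.79 and 8.38 CPM contralaterally and 8.36, 20.5 and 34.9 CPM ipsilaterally, and the ranges overlap only through the highest contralateral and the lowest ipsilateral value (log2 fold change 2.61, SE 0.23, adjusted p = 0.00419 from edgeR). Fcgr1a, the high-affinity antibody receptor, rose by 1.87 (SE 0.21), and Msr1, a scavenger receptor, by 3.58 (0.51). Spp1, the secreted phosphoprotein osteopontin of macrophages and microglia, is another of the 10 named genes with the highest fold changes. It had 3.69, 13.7 and 163 CPM contralaterally and 160, 544 and 1546 CPM ipsilaterally, and the 163 CPM of rat 81 was the value that overlapped (log2 fold change 4.70, SE 0.73). The haemoglobin scavenger Cd163 did not pass, with 0.679, 1.08 and 1.5 CPM against 1.15, 1.47 and 3.61 CPM (log2 fold change 0.68, SE 0.35, adjusted p = 0.238 from edgeR), and Cd36 and Itgal did not pass either. The summed level of the list was between 268 and 485 CPM contralaterally and between 658 and 2235 CPM ipsilaterally. Without rat 96 the number past the threshold was 15, and without rat 85 it was 30.

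Of 12 markers of resting microglia, only 3 could be named and tested. Tmem119, a membrane protein of resting microglia, fell from 20.3, 39.9 and 53.1 CPM to 10.4, 15.6 and 27.6 CPM, by 1.22 on the log2 scale (SE 0.18, edgeR adjusted p = 0.0112), and passed whichever rat was left out. C1qc, a subunit of the first complement component, rose by 0.97 (SE 0.17), with no overlap between hemispheres, and lost the call without rat 88, 90 or 96 (adjusted p up to 0.0660, edgeR). C1qb had a log2 fold change of 0.81 (SE 0.23) and did not pass. Cst7, a protease inhibitor of activated microglia, rose from 0.107 to 1.49 CPM at the median (log2 fold change 3.71, SE 0.30).

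Among T, NK and B cell genes, Cd8a, the co-receptor of cytotoxic T cells, had 0.137, 0.234 and 1.10 CPM contralaterally and 2.09, 5.28 and 7.75 CPM ipsilaterally, without overlap (log2 fold change 3.57, SE 0.45, adjusted p = 0.00825 from edgeR). Cd8b, Klrb1b, Klrk1, Il2rb and Jak3 were the other members past the threshold, 6 of 14 in all. All 6 were higher, and their share (42.9%) lay below that of all named genes (62.8% passed, 50% higher). Klrk1, an activating receptor of NK cells, rose by 2.30 (SE 0.31). The whole list summed to between 10.9 and 36.2 CPM contralaterally and between 30.6 and 61.1 CPM ipsilaterally. The count was 3 without rat 96 and 8 without rat 85.

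Genes of DNA replication were higher in 23 of 29 and genes of mitosis in 28 of 36 tested members, and none of either list was lower. Mcm4, a subunit of the helicase that opens replication forks, had 10.9, 11.9 and 16.8 CPM contralaterally and 24.6, 30.2 and 33.3 CPM ipsilaterally. The hemispheres did not overlap, and the log2 fold change was 1.20 (SE 0.16, edgeR adjusted p = 0.00890). Cdt1, which loads that helicase, rose by 2.46 (SE 0.32). Mki67, a marker of dividing cells, had 0.311, 1.10 and 9.10 CPM contralaterally and 3.84, 9.90 and 13.6 CPM ipsilaterally, and the 9.10 CPM came from rat 81. Its log2 fold change was 2.72 (SE 0.54, edgeR adjusted p = 0.0213). In rat 81 the median difference was 0.58 for replication and 0.74 for mitosis, below the other rats, which lay between 1.07 and 2.72. For mitosis, 2 members passed without rat 88, none without rat 90, 3 without rat 96 and 33 without rat 85. For replication the counts were 5, 4, 5 and 26. Cdk1, the kinase that starts mitosis, lost the call without rat 90 (adjusted p = 0.0611, edgeR), and Mki67 without rat 88, 90 or 96 (up to 0.0739).

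Reactive astrocyte genes were higher in 15 of 16 tested members. Cd44, the hyaluronan receptor, had 10.5, 22 and 30.9 CPM contralaterally and 40.6, 144 and 210.2 CPM ipsilaterally, with no overlap (log2 fold change 2.45, SE 0.21, adjusted p = 0.00361 from edgeR). Timp1, an inhibitor of matrix metalloproteinases, rose by 3.62 (SE 0.44) and Vim, an intermediate filament, by 1.93 (0.31). Gfap, the intermediate filament that defines reactive astrocytes, rose by 1.25 (SE 0.32, edgeR adjusted p = 0.0457). It had 502, 1873 and 4135 CPM contralaterally and 1815, 4673 and 6831 CPM ipsilaterally. Rat 81 went the other way, with 4135 CPM contralaterally and 3170.3 CPM ipsilaterally. The contralateral range of PBBI rats reached above the contralateral sham range of 457 to 1154 CPM, and Gfap lost the call without rat 83, 88, 90 or 96 (adjusted p up to 0.142, edgeR). The small heat shock protein gene Hspb1 rose by 4.44 (SE 0.77), from 2.18, 7.17 and 98.7 CPM to 35.0, 284 and 656 CPM, and was also highest contralaterally in rat 81. It lost the call without rat 88, 90 or 96 (up to 0.0627). Cp, which codes for the ferroxidase ceruloplasmin, did not pass. The list's count was 8 without rat 96 and 15 without rat 85.

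Genes that astrocytes use at rest moved the other way: 20 of 22 tested members were lower and none higher, with a median log2 fold change of -1.04. Hes5, an effector of Notch signalling, had 3.97, 9.40 and 11.0 CPM contralaterally and 0.345, 1.06 and 3.17 CPM ipsilaterally, without overlap, and rat 83 changed least (-0.32). Its log2 fold change was -3.02 (SE 0.54, edgeR adjusted p = 0.0170). Lix1 fell by 1.76 (SE 0.26) from a median of 316 to 72.4 CPM, and Prodh, which breaks down proline, by 1.69 (0.25). Both passed in each fit that left out a rat. Aldoc, a glycolytic enzyme, fell from 774, 1082 and 1202 CPM to 410.3, 503 and 624 CPM, with no overlap (log2 fold change -1.01, SE 0.20). The urea transporter gene Slc14a1 had a log2 fold change of 0.28 (SE 0.16, edgeR adjusted p = 0.304), and Sparcl1 did not pass either. The summed level was between 8490 and 10793 CPM contralaterally and between 4482 and 6747 CPM ipsilaterally. The count was 4 without rat 90 and 21 without rat 85. Hes5 and Aldoc lost their calls without rat 81, 88, 90 or 96, with adjusted p up to 0.0667 and 0.0814 from edgeR.

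Most of the other named genes with the lowest fold changes are on no list. Cml3 and Cml5, a pair of N-acetyltransferase genes of the same family, fell by 2.80 (SE 0.41) and 2.06 (0.40) on the log2 scale. Cml3 had 24.4, 31.4 and 50.7 CPM contralaterally and 1.77, 3.65 and 16.0 CPM ipsilaterally. Alb, the gene of serum albumin, had 14.6, 18.8 and 27.1 CPM contralaterally and 1.09, 3.17 and 13.6 CPM ipsilaterally (log2 fold change -2.49, SE 0.51, adjusted p = 0.0232 from edgeR), and no ipsilateral sample reached the contralateral range. Fmo1, a flavin monooxygenase, fell by 2.05 (SE 0.42), the cytochrome Cyp4f4 by 2.05 (0.48) and Tmc5 by 2.00 (0.51). Etnppl, an enzyme that degrades phosphoethanolamine in astrocytes and a member of the resting astrocyte list, fell by 2.03 (0.39). Cml3 passed whichever rat was left out. Alb, Cml5, Fmo1, Cyp4f4 and Tmc5 lost the call without rat 81, 88, 90 or 96 (adjusted p up to 0.0859, 0.0777, 0.0906, 0.110 and 0.142, edgeR) and Etnppl without rat 81, 88 or 90 (up to 0.0764).

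Of 16 tested genes known from injured axons, 12 were higher and none lower. Sprr1a, a small proline-rich protein of regenerating axons, had 0.226, 0.571 and 1.87 CPM contralaterally and 2.94, 10.6 and 99.9 CPM ipsilaterally, without overlap (log2 fold change 4.61, SE 0.73, adjusted p = 0.0129 from edgeR). Hbegf, a growth factor of the EGF family, rose by 2.93 (SE 0.36), and Tnfrsf12a, the receptor of the cytokine TWEAK, by 3.26 (0.40). Atf3, a stress-induced transcription factor, rose by 3.23 (0.55) and its partner Jun by 1.37 (0.24). Fosl1, another partner of Jun in AP-1, is not on the list and rose by 5.08 (0.51) from a median of 0.198 to 7.36 CPM. Ecel1 did not pass (0.49, SE 0.39). The median of the list was 0.68 in rat 83 and between 2.49 and 2.77 in the other 5 rats. The count was 5 without rat 90 and 14 without rat 85. Sprr1a lost the call without rat 90 or 96 (adjusted p up to 0.0531, edgeR), Jun without rat 88 or 90 (0.0672) and Atf3 without rat 88, 90 or 96 (0.0627).

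Genes of plasminogen activation, proteolysis and clotting were higher in 16 of 24 tested members and lower in none. Their share past the threshold (66.7%) was near that of all named genes (62.8% passed, 50% higher). Plaur, the receptor of the plasminogen activator urokinase, had 0.696, 1.01 and 1.32 CPM contralaterally and 1.93, 7.19 and 19.9 CPM ipsilaterally. The hemispheres did not overlap (log2 fold change 2.90, SE 0.37, adjusted p = 0.00825 from edgeR). Plau, urokinase itself, rose by 3.04 (SE 0.51). F3, the tissue factor that starts clotting, did not pass, with 24.0, 33.6 and 41.0 CPM against 40.7, 46.1 and 60.9 CPM (log2 fold change 0.54, SE 0.17, adjusted p = 0.0878 from edgeR). The count was 6 without rat 88 and 18 without rat 85, and Plau lost the call without rat 88 or 90 (adjusted p up to 0.0642, edgeR).

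Stress proteins were higher in 14 of 19 tested members. Hmox1, which degrades haem, had 5.86, 9.76 and 29.3 CPM contralaterally and 40.2, 129 and 491 CPM ipsilaterally. The hemispheres did not overlap, and the log2 fold change of 3.55 (SE 0.29, edgeR adjusted p = 0.00361) was among the 5 with the smallest p. Mt2A, a metallothionein that binds zinc and copper, rose by 1.82 (SE 0.28). Txnip, an inhibitor of thioredoxin, had a log2 fold change of 0.04 (SE 0.19) and was higher in 4 of 6 rats. The count was 3 without rat 90 and 16 without rat 85. Of 28 extracellular matrix genes, 17 were higher and 2 lower, a share (67.9%) near that of all named genes (62.8%). Fn1, fibronectin, rose by 1.84 (SE 0.22), and Has1, a hyaluronan synthase, had at most 0.130 CPM contralaterally and between 0.220 and 11.7 CPM ipsilaterally. Hapln1, which links hyaluronan to the matrix around neurons, fell from a median of 112 to 25.1 CPM (log2 fold change -1.69, SE 0.24, adjusted p = 0.00959 from edgeR), and Vtn, vitronectin, was the other lower member and lost the call without rat 81, 88, 90 or 96 (adjusted p up to 0.147, edgeR). The matrix count of 19 was 7 without rat 88 and 24 without rat 85.

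Antigen presentation and interferon response genes were higher in 16 of 25 tested members and lower in none. Their share past the threshold (64%) was near that of all named genes (62.8% passed, 50% higher). Ifi30, a reductase of the lysosome that prepares antigens, rose by 1.37 (SE 0.17, edgeR adjusted p = 0.00829), from a median of 9.93 to 30.2 CPM. Irf1 had 6.24, 8.33 and 10.6 CPM contralaterally and 11.0, 14.0 and 19.2 CPM ipsilaterally, without overlap (log2 fold change 0.78, SE 0.12, adjusted p = 0.0119 from edgeR). Only 2 members passed without rat 88, 90 or 96, and 20 without rat 85. Irf1 lost the call without rat 88, 90 or 96 (adjusted p up to 0.0581, edgeR). Of the RT1 genes, which present antigens, RT1-CE10, RT1-CE16, RT1-CE5 and RT1-Da were among the 16, and RT1-CE7, RT1-Db1 and RT1-T24-2 did not pass, the last with a log2 fold change of -0.25 (SE 0.68). RT1-CE10 lost the call without rat 81, 83, 88, 90 or 96 and the other 3 without rat 81, 88, 90 or 96 (adjusted p up to 0.117, edgeR).

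Neuronal signalling genes were lower in 22 of 37 tested members and higher in none. Kcnt2, a sodium-activated potassium channel, had 36.3, 59.2 and 98.5 CPM contralaterally and 15.4, 21.1 and 64.7 CPM ipsilaterally and fell in each rat (log2 fold change -1.05, SE 0.16, adjusted p = 0.0118 from edgeR). Camkk2, a kinase activated by calcium and calmodulin, fell by 1.25 (SE 0.21). Kcnc1, a potassium channel of fast-firing neurons, did not pass (-0.27, SE 0.13), and the activity-dependent Nptx2 had a positive log2 fold change of 1.53 (SE 0.52, edgeR adjusted p = 0.0974). The count was 4 without rat 81, 24 without rat 83, 26 without rat 85, none without rat 88 and 2 without rat 90 or 96. Kcnt2 and Camkk2 lost the call without rat 88 (adjusted p = 0.0515 and 0.0622, edgeR).

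Markers of neighbouring tissue differed between single samples. Genes of striatal projection neurons, which lie beneath the cortex, passed in 1 of 9 tested members (Syndig1l, lower), in none without rat 88 or 90, in 5 without rat 85 and in 9 with DESeq2 without rat 85, all lower. Adora2a, the adenosine receptor of such neurons, had 11.9, 26.8 and 30.4 CPM contralaterally and 3.69, 6.2 and 28.1 CPM ipsilaterally, and was lower ipsilaterally in 4 rats and higher in rats 85 and 96. In sham rats it ran from 3.59 to 144 CPM. Of 9 genes of the choroid plexus and leptomeninges, 3 were lower and 1 higher, a share (44.4%) below that of all named genes (62.8%). Kl, which the choroid plexus makes, had 39.7 CPM in the contralateral library of rat 88 and between 0.125 and 0.571 CPM in the other 11 PBBI libraries. The same library was the highest of the 12 for Enpp2 (608 CPM, others 40.1 to 114), Slc13a4, Fmod and Igf2. The part of such tissue in the differences was not tested. Without rat 88 none of the choroid and leptomeningeal genes passed, likewise without rat 81, 90 or 96, and 6 passed without rat 85.

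Oligodendrocyte genes passed in 3 of 8 tested members, below the share of all named genes. Klk6, a protease of myelinating cells, was higher (1.68, SE 0.36), and Plekhb1 and Dusp15 were lower (-0.76, SE 0.15, and -1.0, 0.19). None of the 3 passed in all fits that left out a rat (adjusted p up to 0.0812, 0.0746 and 0.0774, edgeR; none of the list passed without rat 88, 90 or 96). Of 12 tested genes of endothelium and pericytes, 7 were higher and 1 lower, a share (66.7%) near that of all named genes (62.8%). Procr, the endothelial receptor of protein C, rose by 2.27 (SE 0.34), and S1pr1, a receptor that seals the endothelial barrier, fell from 139, 167 and 186 CPM to 57.7, 74.1 and 102 CPM, without overlap (log2 fold change -1.09, SE 0.18, adjusted p = 0.0135 from edgeR). None of the list passed without rat 88 or 90 and 9 passed without rat 85. S1pr1 lost the call without rat 88, 90 or 96 (adjusted p up to 0.0565, edgeR) and Procr without rat 88 or 90 (0.0504).

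Only 6 genes of the circadian clock could be named and tested, and 50% of them passed, below the share of all named genes (62.8%). Npas2, a partner of BMAL1, had 59.8, 65.7 and 94.0 CPM contralaterally and 19.8, 37.2 and 55.2 CPM ipsilaterally, without overlap (log2 fold change -0.99, SE 0.21, adjusted p = 0.0252 from edgeR). Vipr2, the receptor through which clock neurons synchronise, fell by 1.15 (SE 0.29) and Timeless rose by 1.07 (0.26). Arntl, the gene of BMAL1 itself, had 27.8, 32.2 and 37.6 CPM contralaterally and 17.0, 27.7 and 30.9 CPM ipsilaterally, was lower in 5 of 6 rats and did not pass (-0.33, SE 0.14, adjusted p = 0.166 from edgeR). Its paralog Arntl2 did not pass either (1.32, SE 0.61, edgeR adjusted p = 0.196), but passed without rat 85 (edgeR adjusted p = 0.00634), the only rat in which it was lower ipsilaterally. None of the list passed without rat 88, 90 or 96, 1 without rat 81 and 5 without rat 85. Leaving out a rat, the adjusted p from edgeR reached 0.0952 for Npas2, 0.136 for Vipr2 and 0.132 for Timeless.

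The same genes were compared with sham rats, in which the rat was again a block. The difference of the contrasts, PBBI minus sham, was largest for Ccl7 (5.96, SE 0.69), Ccl2 (5.88, 0.69) and Cxcl3 (5.78, 0.92) among named genes whose mean log2 CPM was 1 or more, with adjusted p of 0.00234, 0.00234 and 0.00800 from edgeR. It was lowest for AABR07027243.1 (-2.91, SE 0.49), Hes5 (-2.74, 0.60) and Alb (-2.69, 0.58). Socs3 had a difference of 4.31 (SE 0.39, edgeR adjusted p = 0.000814) and a sham log2 fold change of -0.50. For the neuronal list, 7 of 37 members passed this test, all negative, and for the resting astrocyte list 12 of 22, all negative. None of the clock, striatal or oligodendrocyte genes passed it. The share of all named genes that passed this test was not worked out. Within PBBI rats named genes passed far more often than genes without a name. These list counts therefore cannot be read as an excess over the 4.27% of all genes tested. Leaving out 1 rat moved the number of genes past this test between 192 (without sham rat 82) and 1358 (without PBBI rat 85). Slc6a3, the dopamine transporter, was too low to be tested in any contrast, with at most 0.444 CPM in PBBI samples and up to 6.62 CPM in an ipsilateral sham sample.

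**Figure D5:**
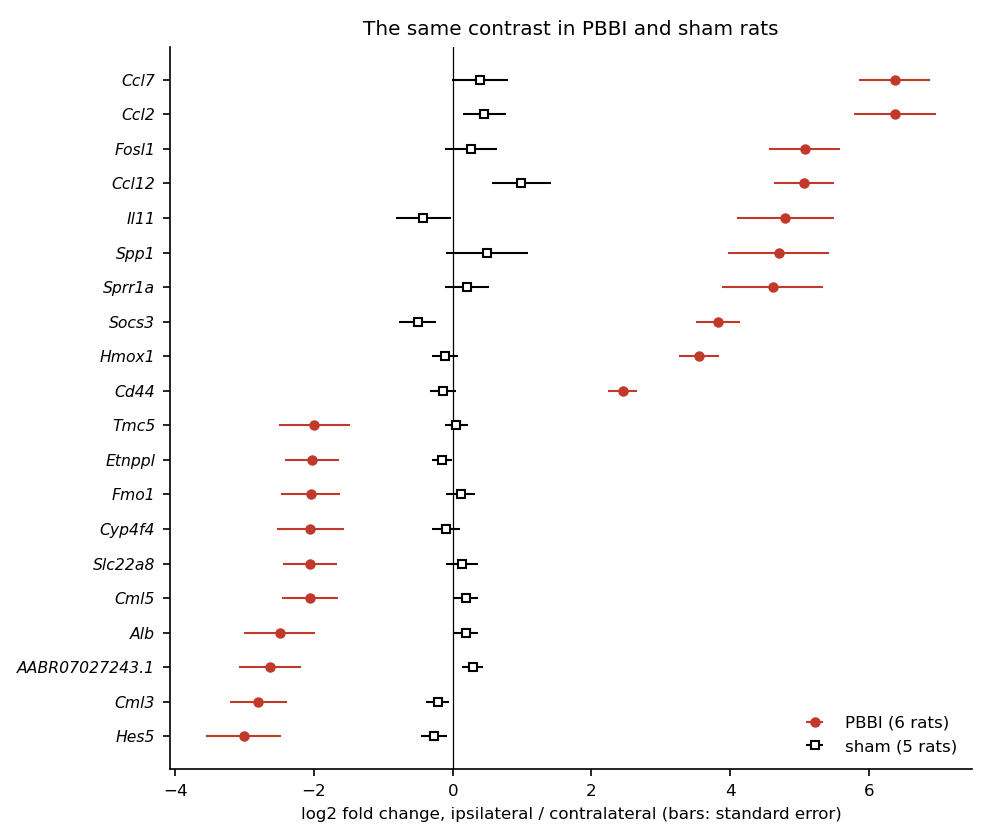
Log2 fold change of the ipsilateral over the contralateral hemisphere (horizontal, bars are standard errors) in 6 PBBI rats (red circles) and 5 sham rats (open squares) for named genes with the highest and lowest changes and the smallest p that were also tested in sham. Sham values lie between -0.50 and 0.99 and PBBI values between -3.02 and 6.37.

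Among genes without a name, ENSRNOG00000002792 rose by 5.49 on the log2 scale (SE 0.57) and ENSRNOG00000010478 by 4.10 (0.97), the latter with between 5.69 and 634 CPM ipsilaterally. ENSRNOG00000004443 fell by 3.25 (SE 0.57) and ENSRNOG00000036680 by 2.25 (0.48). The first passed in each fit that left out a rat. ENSRNOG00000010478 lost the call without rat 88, 90 or 96 (adjusted p up to 0.108, edgeR), ENSRNOG00000004443 without rat 88 or 96 (0.0620) and ENSRNOG00000036680 without rat 81, 88, 90 or 96 (0.0957).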

How the data were processed

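The authors sequenced rRNA-depleted RNA, aligned reads to the rat genome Rnor_6.0 with STAR 2.4.2a and deposited raw counts per Ensembl gene from featureCounts 1.4.3-p1. The strand setting and the handling of reads with several alignments are not given in the sources used here. Of 32545 identifiers, 23572 had counts, and 1814 could be given a symbol from the study's supplementary gene tables, which also hold the authors' comparisons (fold changes and p-values, not used). Members and gene lists were chosen with earlier results of these data known.

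PBBI hemispheres were compared with edgeR 4.0.16 (R 4.3.3) by the quasi-likelihood test, with TMM, filterByExpr, the rat as a block and Benjamini-Hochberg adjustment at 0.05. Sham hemispheres, and the difference between PBBI and sham, were fitted likewise. CPM values use TMM factors of all 22 samples, whereas each fit uses its own. Log2 differences within a rat use a prior count of 2. Pairs come from the animal id. As a check, deviations from the group means correlated within each rat with r between 0.252 and 0.776, and each sample correlated best with its own pair. Scripts were tested on simulated data.

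Genes named were the 10 highest and 10 lowest fold changes whose mean log2 CPM was 1 or more, with the same sign in 6 rats, the 5 smallest p, 3 members with the smallest p and the 1 with the largest p of each list, genes the study names, 2 unnamed identifiers in each direction and 3 genes in each direction of the difference from sham. Other list members were named after their values were seen. A few genes that the rule names are not reported here. Alternatives were RLE size factors, other filters, no block, DESeq2 1.42.0, limma 3.58.1 voom, all 22 samples in the same fit, a fold limit and leaving out rats. Total counts per PBBI sample were between 55912129 and 63412426. The labels give 1 sample per hemisphere and rat, so the spread is between rats. Promoters were read from a RefSeq table of GRCr8, with no conversion of coordinates.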

Additional observations from a re-analysis of the deposited data

Results flagged for a closer look

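In 55 groups of 6 within-rat differences, 5 held a rat far from the others, and chance alone gives about 1 in 20 such groups. For Ccl7 the gap of rat 83 to the nearest rat was 0.630 of the whole range (3.8 against 5.97 on the log2 scale), and for Ccl2 it was 0.681 (3.35 against 5.99). For the median of the axon injury list it was 0.866 (0.68 against 2.49), and for the median of the plasminogen, protease and clotting list 0.708 (0.51 against 1.88), again in rat 83. For Arntl2, a paralog of the clock gene Arntl, rat 85 lay apart at 0.742 of the range (-2.43 against 1.16), and the gene passed without that rat (edgeR adjusted p = 0.00634).

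The difference between hemispheres differed between PBBI and sham rats in 708 genes by the test of the difference in edgeR. Among them the difference, PBBI minus sham, was 5.96 for Ccl7, 5.88 for Ccl2, 5.78 for Cxcl3, -2.74 for Hes5, -2.91 for AABR07027243.1 and -2.69 for Alb on the log2 scale.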

How the results depend on the processing

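With 6 pairs and 5 residual degrees of freedom, counts of calls moved strongly with the rats and the test. The cause was not tested. Leaving out 1 rat gave between 263 and 3356 genes past the threshold in PBBI (higher 219 to 1886, lower 33 to 1470). With no replicate block, that is without pairing by rat, it was 568 (474 higher, 94 lower), so that 83.45% of calls were higher in place of 64.82%. DESeq2 gave 3453 (1925 and 1528), limma voom with sample quality weights 5178 (2629 and 2549, 50.77% higher) and all 22 samples in the same fit 3199 (1713 and 1486, 53.55% higher). An absolute log2 fold change of at least 1 left 928 (697 and 231). Chosen after seeing the data, limma voom without quality weights gave 1986 (1267 and 719, 63.8% higher), DESeq2 without rat 85 gave 4651 (2354 and 2297), weighted voom without rat 85 gave 4803 (2561 and 2242) and edgeR without rats 83 and 85 gave 4233 (2367 and 1866). In sham, DESeq2 called 1 gene. The difference between PBBI and sham was called in 54 genes with no replicate block, 1715 with DESeq2, 3847 with weighted voom and 192 to 1358 with 1 rat left out. List genes past the threshold numbered 171 with no replicate block and 91 to 324 with 1 rat left out. Values of 3 genes that had not passed turned in direction. With 1 rat left out Txnip lay between -0.0322 and 0.239 (-0.0274 without rat 81, -0.0322 without rat 90 and -0.0260 without rat 96), RT1-T24-2 between -0.703 and 0.142 (0.00213 without rat 81 and 0.142 without rat 88), and Gpr182 between -0.0683 and 0.553 (-0.0683 without rat 88 and -0.00639 without rat 90). RT1-T24-2 was at 0.00289 in DESeq2 without rat 85. Of the values of single genes under these settings, 1610 kept their direction and side of the threshold, 141 lost and 73 gained the call. No pair of samples held identical values.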
